A study of Mus musculus with 4 samples.

Results

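The genes described here encode the Celf proteins (Celf1 to Celf6), the neuronal Elavl or Hu proteins (Elavl2, Elavl3 and Elavl4) and Rbfox2, all of which bind RNA and shape the transcripts of neurons. They were taken by name, and each is read from the array probe set that carries the platform's annotation for that gene alone and had the highest mean over the arrays. All 10 had such a probe set, among 19937 genes with one, and all 10 passed the filter on dim genes described below.

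The samples were primary neurospheres, floating clusters of stem and progenitor cells grown in culture from the walls of the lateral ventricles of C57BL/6 mice aged 9 to 12 weeks. In both groups the cells were transfected with 75 pmol of non-targeting siRNAs, exposed for 5 h to pCLIG-Pax6 virus, which carries the neurogenic transcription factor Pax6, cultured for 36 h and then differentiated for 10 h on laminin without growth factors. The olaparib group (2 arrays) was kept in 100 nM olaparib, which inhibits PARP1 and PARP2, in 0.01% DMSO, and the DMSO group (2 arrays) in 0.01% DMSO alone. Both groups therefore received the Pax6 virus and the control siRNAs, and no group without Pax6 was analysed here. The labels name the 2 samples of each group as biological replicates, without giving the number of animals behind a replicate or the share of cells that took up the virus. The comparison asks how PARP inhibition alters transcript levels in such cells as they differentiate into neurons.

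Celf proteins bind GU-rich sequences and control alternative splicing, decay and translation of mRNAs. Neuronal Elavl proteins bind U-rich and AU-rich stretches, mostly in 3′ untranslated regions and introns, and are known for stabilising mRNAs as progenitors become neurons. Rbfox proteins bind UGCAUG and set the inclusion of neighbouring exons. Celf1 and Celf2 are made in many tissues, Celf3 to Celf6 and Elavl3 and Elavl4 mainly in nervous tissue, and Elavl2 in neurons and gonads.

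Celf3 was the member whose transcript fell with olaparib, so the sequence around its starts is shown first, with that of Elavl3, a neuronal member that did not pass the test, beside it. The windows hold 300 bases on the strand of the gene, taken here as 250 before and 50 after an annotated start, in build GRCm38.p6. Such a start need not be the outermost start of the gene. Celf3 has 7 such windows, which form 3 separate stretches of the plus strand, and 1 window of each stretch is given. Capitals mark CANNTG, the E-box bound by bHLH factors, and TGACGTCA, the cyclic AMP response element, searched on both strands.
Celf3 at chr3:94478045-94478344, plus strand: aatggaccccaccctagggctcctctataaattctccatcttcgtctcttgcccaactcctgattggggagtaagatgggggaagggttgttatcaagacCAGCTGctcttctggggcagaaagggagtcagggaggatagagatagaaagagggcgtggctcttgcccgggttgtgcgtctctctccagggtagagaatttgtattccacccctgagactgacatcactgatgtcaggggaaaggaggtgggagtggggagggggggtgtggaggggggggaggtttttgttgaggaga
Celf3 at chr3:94482472-94482771, plus strand: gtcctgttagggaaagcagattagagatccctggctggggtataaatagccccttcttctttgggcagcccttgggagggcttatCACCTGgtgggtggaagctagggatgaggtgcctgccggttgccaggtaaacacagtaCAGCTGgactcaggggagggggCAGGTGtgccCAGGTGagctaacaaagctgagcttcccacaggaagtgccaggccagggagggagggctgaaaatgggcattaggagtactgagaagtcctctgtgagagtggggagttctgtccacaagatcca
Celf3 at chr3:94484077-94484376, plus strand: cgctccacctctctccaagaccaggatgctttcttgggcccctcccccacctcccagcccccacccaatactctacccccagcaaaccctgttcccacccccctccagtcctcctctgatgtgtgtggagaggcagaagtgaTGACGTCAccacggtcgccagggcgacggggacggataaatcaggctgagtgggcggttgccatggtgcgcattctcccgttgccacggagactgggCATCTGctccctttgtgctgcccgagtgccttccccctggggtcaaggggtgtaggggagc
Elavl3 at chr9:22051974-22052273, minus strand: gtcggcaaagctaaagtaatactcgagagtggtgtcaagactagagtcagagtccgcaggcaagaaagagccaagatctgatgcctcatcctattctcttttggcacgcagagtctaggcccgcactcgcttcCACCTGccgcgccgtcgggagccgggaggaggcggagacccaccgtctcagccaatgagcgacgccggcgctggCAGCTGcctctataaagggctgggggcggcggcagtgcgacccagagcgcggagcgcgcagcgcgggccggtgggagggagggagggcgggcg

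CANNTG occurred in 7 of the 7 Celf3 windows and in 25 of the 31 windows read for 8 members (Celf1, Celf2, Celf3, Celf5, Celf6, Elavl2, Elavl3 and Elavl4). Member windows on chromosome 18, which holds Celf4, were left out of that count. CANNTG is common, being present in 72.3% of 32851 windows of the same length. TGACGTCA occurred in 3 of the 7 Celf3 windows, which overlap and share 1 copy, and in 1 of the 2 Celf6 windows, against 1.8% of all windows. Neither match is evidence of binding.

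The deposited values are log2 signals, 1 per probe set and array. Probes differ in how brightly they hybridise, so levels of different probe sets do not give the relative amounts of their transcripts, and they serve here only as a guide to where signal nears background. For that floor, 23 genes of liver, pancreas, muscle, skin, kidney, lung, gut and germ cells had means between 5.99 and 7.77, with a median of 6.39 and a 75th percentile of 6.72. Markers of neural stem and progenitor cells had a median level of 9.13 and of astrocytes 10.35, while microglial and vascular or fibroblast markers lay at 6.35 and 6.41, close to that floor. The medians of the arrays lay between 6.60 and 6.68, and r across the tested genes was 0.993 between the olaparib arrays and 0.996 between the DMSO arrays. For bright markers the olaparib arrays were less alike. The median of the astrocyte markers was 10.04 and 10.32 in olaparib cells, against 10.54 and 10.53 in DMSO cells. For progenitor markers it was 9.01 and 9.21, against 9.24 and 9.20, and for the genes of the floor 6.46 and 6.41, against 6.41 and 6.36. With 2 arrays against 2, the smallest two-sided p an exact permutation test can give is 0.333. Tests therefore come from limma, fitted over the 13956 genes whose mean lay above a log2 value of 6.42, which borrows the spread from all genes, with Benjamini-Hochberg adjustment over all of them and a threshold of 0.05.

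Of the 10 genes, 1 fell (Celf3), 0 rose and 9 did not pass. Over all genes tested 6.22% passed, 2.84% as higher and 3.37% as lower with olaparib, so that 1 call among 10 genes is not a result about the group as a whole. At an unadjusted p under 0.05 there was also 1 member, where 19.1% of all genes stood. The median change of the 10 was -0.05 on the log2 scale, beside 0.0013 over all genes tested. Changes were below 0 in 6 members and above it in 4.

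Celf3, a splicing regulator made mainly in the nervous system, had log2 signals of 6.84 and 6.84 in olaparib cells, against 7.36 and 7.33 in DMSO cells. Both olaparib arrays lay below both DMSO arrays, and the arrays within a group all but coincided. Celf3 fell by 0.51 on the log2 scale (SE 0.08, 95% interval -0.67 to -0.35, adjusted p = 0.000277 in limma), a 1.42-fold lower signal, and ranked 79 of 13956 genes by p. Its own within-group SD was 0.01, and the SE given rests mostly on the spread borrowed from other genes. When limma was fitted to all 21704 probe sets above the same signal, including those with no gene or several genes, the change was the same and the adjusted p was 0.0653, which did not pass. Leaving out any 1 array gave changes between -0.52 and -0.50, with Celf3 past the threshold each time. Its mean of 6.84 in olaparib cells lies among the genes of unrelated tissues. Its mean of 7.35 in DMSO cells lies above all of them except Apoa2 at 7.77, the next being Gcg at 7.09. The low olaparib level limits how well the size of its fall is known.

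**Figure D1:**
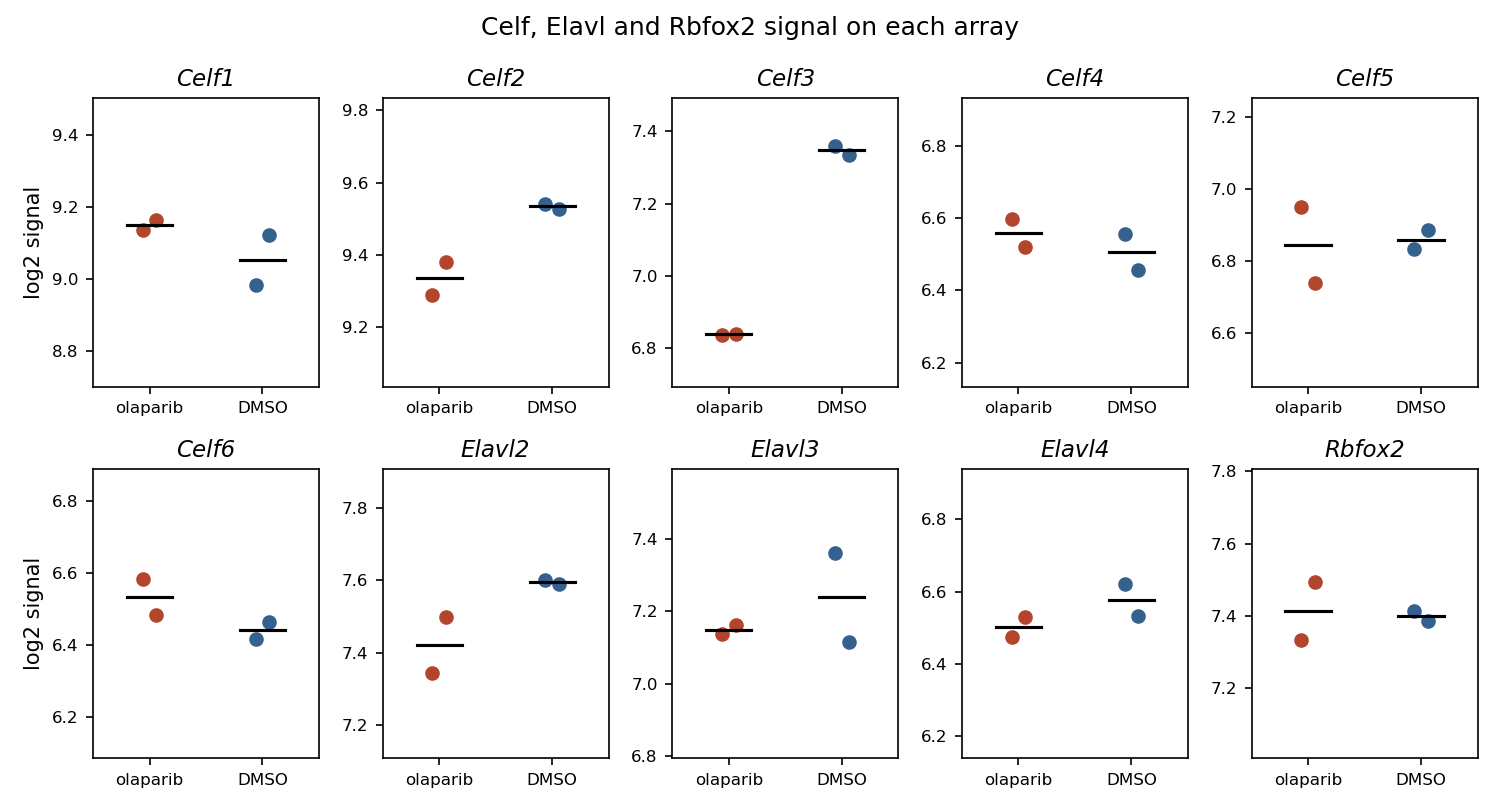
Log2 signal (y axis) of each of the 10 genes in the 2 olaparib arrays and the 2 DMSO arrays (x axis), with points for arrays and bars for group means; every panel spans 0.8 log2 units around its gene's mean. Celf3 shows the widest gap, 6.84 in olaparib cells against 7.35 in DMSO cells, and the groups overlap for Celf4, Celf5, Elavl3 and Rbfox2.

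The other Celf genes of nervous tissue did not pass. Celf5, a brain splicing regulator, read 6.95 and 6.74 in olaparib cells, against 6.83 and 6.89 in DMSO cells, so that the groups overlapped. Its change was -0.02 (95% interval -0.19 to 0.16, adjusted p = 0.964 in limma). Celf4, which in the mouse is tied to seizures when lost, stood at 6.60 and 6.52 with olaparib, against 6.56 and 6.46 with DMSO, a change of 0.05 (95% interval -0.12 to 0.22, adjusted p = 0.830 in limma). Celf6 had 6.58 and 6.48 in olaparib cells, against 6.42 and 6.46 in DMSO cells, the olaparib arrays being the higher ones by a small margin. Its change of 0.09 had a 95% interval of -0.08 to 0.26 (adjusted p = 0.632 in limma). Levels of Celf4 and Celf6 are near the floor, which limits what could be detected.

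Celf1 and Celf2, the broadly made members, were well above the floor on their brightest probe sets. Celf1 measured 9.14 and 9.16 in olaparib cells, against 8.98 and 9.12 in DMSO cells, a change of 0.10 (95% interval -0.13 to 0.32, adjusted p = 0.731 in limma). Celf2 measured 9.29 and 9.38 with olaparib, against 9.54 and 9.53 with DMSO, with both olaparib arrays the lower ones. That difference of -0.20 did not pass (95% interval -0.43 to 0.03, adjusted p = 0.350 in limma).

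Celf1 and Celf2 are also the members with a further probe set of their own, and in both genes the 2 probe sets differed in direction. The dimmer Celf1 probe set had 7.67 and 7.95 in olaparib cells, against 8.04 and 8.14 in DMSO cells, so the olaparib arrays were the lower ones, unlike on the brighter probe set. The dimmer Celf2 probe set had 7.03 and 7.05 in olaparib cells, against 6.85 and 6.85 in DMSO cells, again opposite to the brighter one. These Celf2 levels lie within the range of the genes of unrelated tissues, which limits how well that change is known. In the limma fit over all probe sets the dimmer Celf1 probe set changed by -0.28 (SE 0.12, unadjusted p = 0.0475, adjusted p = 0.356). In the same limma fit the dimmer Celf2 probe set changed by 0.19 (SE 0.08, unadjusted p = 0.0379, adjusted p = 0.329), so neither passed. When both probe sets were averaged instead, the change was -0.09 for Celf1 and -0.0036 for Celf2.

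The gap between a gene's probe sets within an array puts this in 1 number. For Celf1 the brighter minus the dimmer probe set was 1.47 and 1.21 in olaparib cells, against 0.94 and 0.99 in DMSO cells, a difference of 0.37. For Celf2 the gap was 2.26 and 2.33 in olaparib cells, against 2.69 and 2.68 in DMSO cells, a difference of -0.39. In neither gene did the groups overlap. That follows from the 2 probe sets of each gene, which already separated the groups, in opposite directions. The exact two-sided permutation p of 0.333 for each, the smallest that 4 arrays allow, is therefore no further support. How often such gaps separate the groups in other genes with more than 1 probe set was not computed. The exons that each probe set covers were not used here. These gaps were computed after the opposite directions had been seen.

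**Figure D2:**
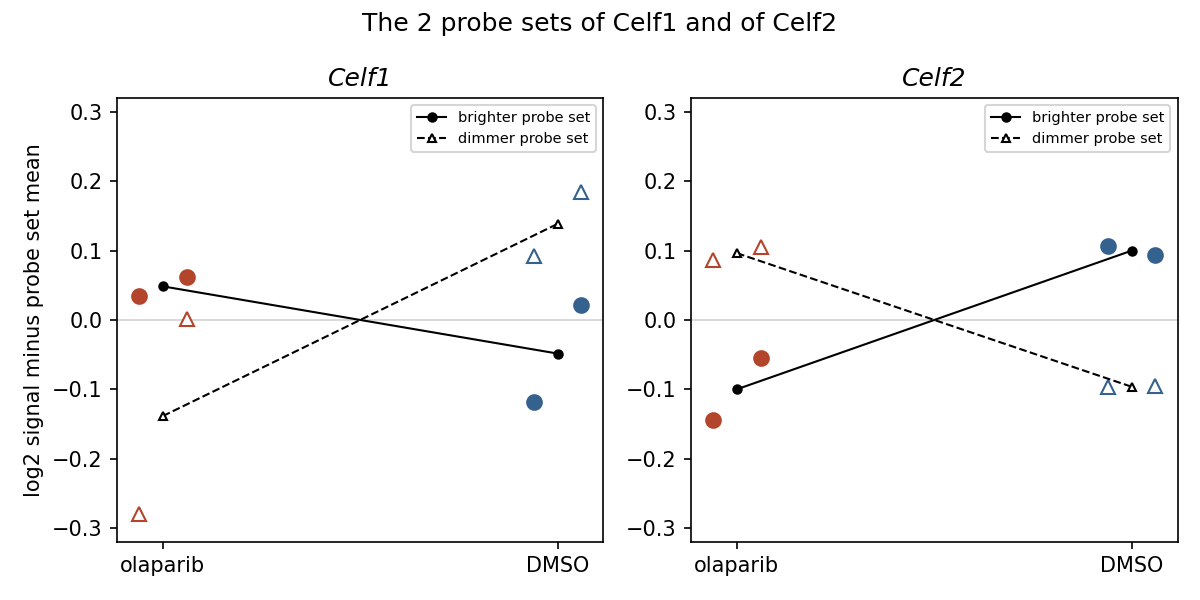
Log2 signal of each probe set minus its mean over the 4 arrays (y axis) in olaparib and DMSO cells (x axis); filled circles and solid lines are the brighter probe set, open triangles and dashed lines the dimmer one, and lines join group means. The lines cross in both genes, with the brighter Celf1 probe set 0.10 higher and the dimmer one -0.28 with olaparib, and the brighter Celf2 probe set at -0.20 and the dimmer one at 0.19.

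The changes of the 3 Hu genes were all below 0, and none passed. Elavl2, which encodes HuB, had log2 signals of 7.34 and 7.50 in olaparib cells, against 7.60 and 7.59 in DMSO cells, with no overlap between the groups. Its change was -0.17 (SE 0.08, 95% interval -0.35 to 0.0007, unadjusted p = 0.0508 and adjusted p = 0.265 in limma). Elavl3, which encodes HuC, an early pan-neuronal protein, had 7.14 and 7.16 in olaparib cells, against 7.36 and 7.12 in DMSO cells. The 2 DMSO arrays lay on either side of the olaparib pair, and the change of -0.09 had a 95% interval of -0.27 to 0.09 (adjusted p = 0.669 in limma). Elavl4, which encodes HuD, had 6.47 and 6.53 in olaparib cells, against 6.62 and 6.53 in DMSO cells, with a change of -0.07 (95% interval -0.24 to 0.09, adjusted p = 0.718 in limma). Elavl4 was near the floor, and its nearest arrays differed by less than 0.01.

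Rbfox2, the Rbfox gene already used by progenitors, had 7.33 and 7.49 in olaparib cells, against 7.41 and 7.39 in DMSO cells. The olaparib arrays stood on either side of the DMSO pair, and the change of 0.01 had a 95% interval of -0.16 to 0.19 (adjusted p = 0.966 in limma). Of its relatives, Rbfox1 differed by -0.04 and Rbfox3, which encodes the mature neuron antigen NeuN, by 0.0080, both at levels near the floor. Elavl1, the ubiquitous Hu gene, differed by 0.05 (95% interval -0.19 to 0.28).

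**Figure D3:**
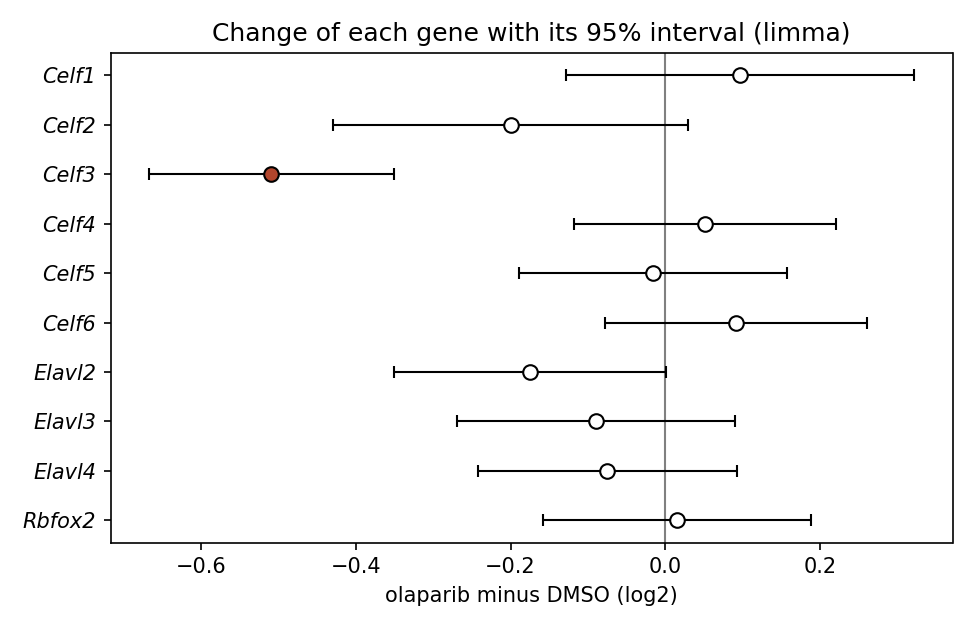
Change of each gene, olaparib minus DMSO on the log2 scale (x axis), with its 95% interval from limma; the filled point passed an adjusted p of 0.05 and open points did not. The interval of Celf3 runs from -0.67 to -0.35, and the intervals of the other 9 genes include 0.

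Over the family the groups did not overlap in 6 of 10 genes, with olaparib below in 4 (Celf2, Celf3, Elavl2 and Elavl4) and above in 2 (Celf1 and Celf6). Among all genes tested the groups did not overlap in 47.1%, below in 23.9% and above in 23.2%, so separation alone says little with 2 arrays a group. The intervals of Celf1, Celf2, Elavl2 and the rest leave room for modest changes: the lowest bounds among the 9 that did not pass were -0.43 for Celf2 and -0.35 for Elavl2, and the highest was 0.32 for Celf1. Whether the change of Celf3 differed from that of the other members was not tested.

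The genes whose 4 array values lay closest to those of Celf3, each centred on its own mean, were Grin3a, an NMDA receptor subunit, Slc7a2, a cationic amino acid transporter, and Galnt16, a glycosyltransferase. Their root mean square distances from Celf3 over the 4 arrays were 0.01, 0.02 and 0.02 on the log2 scale. Grin3a had 7.14 and 7.12 in olaparib cells, against 7.66 and 7.66 in DMSO cells. Being chosen for likeness to Celf3 they fell too, by 0.53, 0.54 and 0.50, and these values are a description only.

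Some markers of immature neurons also fell. Of 12 such markers tested 4 fell (Dcx, Gad2, Map2 and Stmn3), 0 rose and 8 did not pass, where 3.37% of all genes fell. Their median change was -0.24. The list also holds Rbfox3, the gene of the mature neuron antigen NeuN, which is counted among the 8. The median level of the 14 on the array was 7.38 and 7.49 in olaparib cells, against 8.09 and 8.09 in DMSO cells, a wider gap than the median change. Cd24a at 0.08, Rbfox3 at 0.0080 and Gad1 at -0.04 had overlapping groups. Dcx, the microtubule protein of migrating neuroblasts, fell by 1.05 (SE 0.10), and Tubb3, a neuronal tubulin, differed by -0.32 (SE 0.12, adjusted p = 0.134 in limma). Tubb3 passed with quantile normalization (adjusted p = 0.0204 in limma), and its change ran from -0.49 to -0.15 over the 14 alternatives described below. Of 8 astrocyte markers 2 fell and 0 rose, with 7 changes below 0 and a median change of -0.23, close to that of the immature neuron markers. Gfap, an intermediate filament protein and 1 of the 2, fell by 1.03 (SE 0.13), about as far as Dcx. At an unadjusted p under 0.05 in limma stood 8 of the 12 immature neuron and 4 of the 8 astrocyte markers, where 19.1% of all genes did. Of 8 oligodendrocyte lineage markers 1 rose and 0 fell, where 2.84% of all genes rose. Of 10 neural stem and progenitor markers none passed in limma, with 3 at an unadjusted p under 0.05. Of 4 ependymal markers tested none passed in limma, with 1 at an unadjusted p under 0.05. In bulk RNA fewer neurons and less Celf3 RNA per neuron cannot be told apart, and the part of these markers in the fall of Celf3 was not tested. The transgene's gene Pax6 differed by 0.06 (95% interval -0.18 to 0.29), Parp1 by -0.04 and Parp2 by -0.10, none past the threshold.

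Other RNA-binding proteins were read from 2 lists that hold no member. Among splicing regulators, 26 were listed, 24 had a probe set of their own and 22 were tested, of which 1 rose, 1 fell and 20 did not pass, with a median change of -0.07. These 2 calls are few enough to lie near the 6.22% of all genes that passed. Mbnl1, a muscleblind protein whose action on many exons opposes that of Celf proteins, measured 9.62 and 9.70 in olaparib cells, against 9.25 and 9.29 in DMSO cells. Mbnl1 rose by 0.39 (SE 0.11, adjusted p = 0.0407 in limma). Srsf1, a general SR splicing factor, had 8.77 and 8.94 in olaparib cells, against 9.29 and 9.25 in DMSO cells, and fell by 0.41 (SE 0.11, adjusted p = 0.0271 in limma). For both, no array of one group reached the range of the other. Mbnl1 did not pass without the filter on dim genes (adjusted p = 0.0582), and Mbnl1 and Srsf1 did not pass under median centring (adjusted p = 0.220 and 0.138) or without either DMSO array (adjusted p up to 0.603 and 0.448).

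Regulators of mRNA stability and translation gave the same count. Of 30 listed, 28 had a probe set of their own and 26 were tested, of which 1 rose, 1 fell and 24 did not pass, again near the 6.22% of all genes, with a median change of 0.03. Cpeb4, which binds cytoplasmic polyadenylation elements, had 8.97 and 9.13 in olaparib cells, against 8.57 and 8.53 in DMSO cells, and rose by 0.50 (SE 0.10, adjusted p = 0.00637 in limma). Tia1, a stress granule protein that silences translation, had 7.63 and 7.70 in olaparib cells, against 7.99 and 8.15 in DMSO cells, and fell by 0.40 (SE 0.09, adjusted p = 0.00978 in limma). Cpeb4 did not pass without either DMSO array (adjusted p up to 0.178), nor Tia1 without DMSO replicate 2 (adjusted p = 0.252).

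Messenger RNAs that other work has reported as bound by Hu proteins changed in both directions. The list holds Nova1 and Msi1, which also stand in the 2 lists above. It was chosen with earlier results of these data known, so its share past the threshold is a description only. Of 18 listed, 16 had a probe set of their own and 15 were tested, of which 2 rose, 3 fell and 10 did not pass, where 6.22% of all genes passed, with a median change of -0.03. Satb1, a chromatin organiser, read 8.77 and 8.80 in olaparib cells, against 9.46 and 9.48 in DMSO cells, and fell by 0.68 (SE 0.11, adjusted p = 0.000405 in limma). Camk2a, the alpha subunit of CaM kinase II, had 6.79 and 6.63 in olaparib cells, against 7.34 and 7.14 in DMSO cells, and fell by 0.53 (SE 0.09, adjusted p = 0.000600 in limma). Mycn, a growth-promoting transcription factor of progenitors, fell by 0.38 (SE 0.08, adjusted p = 0.00509 in limma). The olaparib means of Camk2a and Mycn, 6.71 and 6.93, lie among the genes of unrelated tissues. That limits how well the sizes of their falls are known.

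Gap43, the growth cone protein whose mRNA HuD is best known for stabilising, moved the other way. It measured 9.98 and 10.32 in olaparib cells, against 9.61 and 9.54 in DMSO cells, and rose by 0.57 (SE 0.13, adjusted p = 0.00825 in limma). Fos, an immediate early factor chosen after its value was known, rose by 0.34 (SE 0.08, adjusted p = 0.0116 in limma). Gap43 did not pass without either DMSO array (adjusted p up to 0.199), nor Mycn without DMSO replicate 1 (adjusted p = 0.0634), nor Fos without either DMSO array (adjusted p up to 0.118). In the limma fit over all 21704 probe sets, 0 genes of these 3 lists passed, and adjusted p was 0.0639 for Satb1 and 0.0957 for Camk2a. Of the genes tested in each list, those at an unadjusted p under 0.05 numbered 8 of the splicing regulators, 4 of the stability regulators and 9 of the Hu targets, beside 19.1% of all genes.

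**Figure D4:**
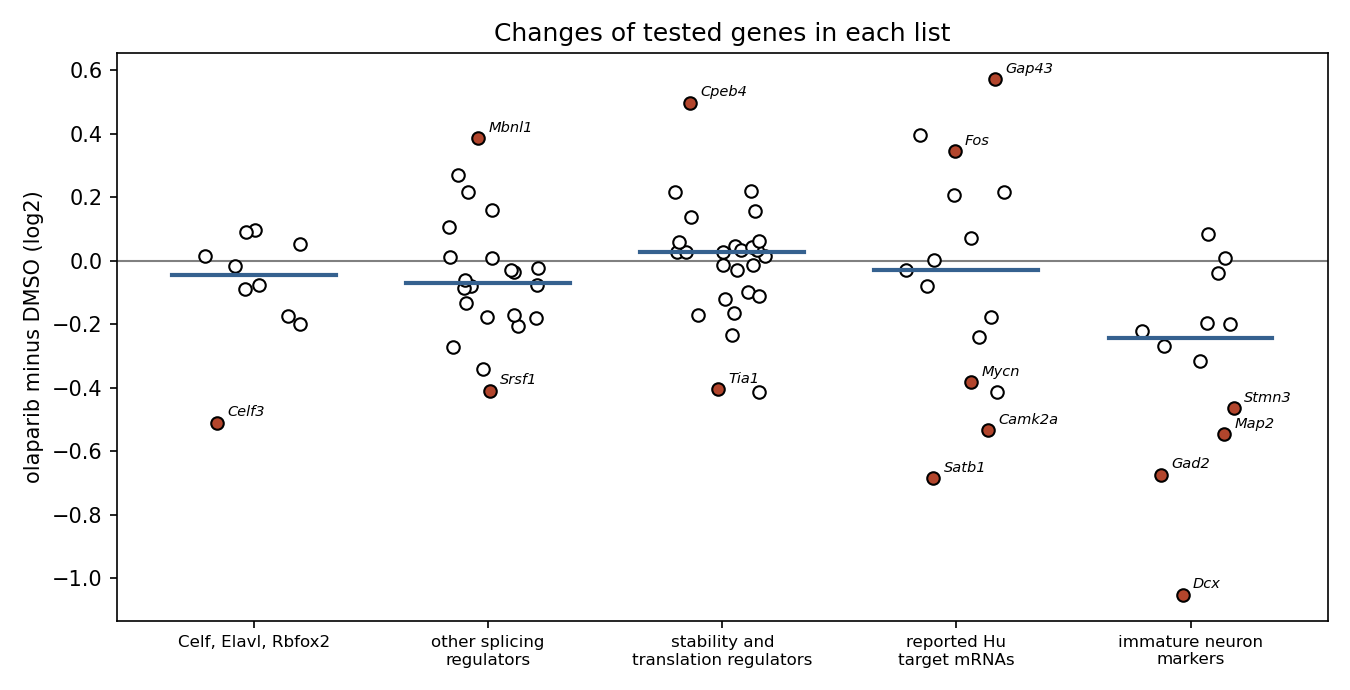
Change of each tested gene, olaparib minus DMSO on the log2 scale (y axis), in the 10 Celf, Elavl and Rbfox2 genes, in the 3 lists of other regulators and reported targets and in the immature neuron markers (x axis); filled points passed an adjusted p of 0.05 in limma, horizontal bars are list medians and sideways scatter has no meaning. Celf3 at -0.51 is the lowest of the 10 members, and the Hu target list spans -0.68 for Satb1 to 0.57 for Gap43.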

How the data were processed

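Total RNA (40 ng) was amplified, biotin-labelled and applied to Affymetrix mouse arrays, per the labels' protocols. The deposited values are the authors' log2 signals, 1 per probe set and array, and their background correction, normalization and summarisation are not given in the sources used here. Of 34760 probe sets, 21640 named 1 gene and 1321 several in the platform annotation of GEO, and 11799 were unlisted. Symbols were updated to RefSeq (GRCm38.p6) through gene IDs, for 19855 of 19937 genes. Each gene was read from its brightest probe set, and those brighter than the 30th percentile of gene means were fitted with limma 3.58.1 in R 4.3.3 (lmFit, then eBayes with trend, two-sided p). Intervals use the moderated degrees of freedom. The fit was also run on simulated data with noise drawn from its own estimated spread. That checks the procedure and not the calls made here. No sample was dropped, and no batch or pairing is given in the labels. The number of arrays limits the precision. Members and lists were chosen with earlier results of these data known. The genes named were all members, 5 fixed genes (Pax6, Parp1, Parp2, Dcx and Tubb3), up to 4 genes per list by smallest p among those past the threshold, and the 3 genes nearest to each member past it. Rbfox1, Rbfox3, Elavl1, Fos, Gfap and the other markers named were chosen after their values were known. Alternatives covered the filter, normalization, a floor, the spread model, the rows fitted, probe set averaging, the threshold and each array. Figures used matplotlib 3.10.9.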

Additional observations from a re-analysis of the deposited data

How the results depend on the processing

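The 14 alternatives were run for every gene named, except that Celf4, Celf6, Elavl4, Rbfox1 and Rbfox3 were too dim for the filter at the 50th percentile and have 13. The count of Celf, Elavl and Rbfox2 genes past the threshold was 1, always Celf3, under 13 of them, and it was 0 when limma was fitted to all 21704 probe sets. Leaving out an array kept it at 1 each time. Celf3 changed by -0.52 to -0.50 over the 14, with adjusted p between 3.84e-06 and 0.0653. No called gene changed sign. Among the members Celf1, Elavl3 and Rbfox2 changed sign under 1 alternative each and Celf5 under 2, without passing. For the 3 lists, Rbfox1, Rbfox3, Elavl1, Fos and Gfap the alternatives were chosen after seeing the data. Splicing regulators past the threshold numbered 2, and 1 without a filter, 4 with quantile normalization, 0 under median centring and 0 with all probe sets, and 0 to 5 with an array left out. Stability and translation regulators numbered 2, and 0 with all probe sets, and 0 to 5 with an array left out. Hu targets numbered 5, and 0 with all probe sets, 8 at an adjusted p of 0.1, and 2 to 7 with an array left out. Over all genes, 397 were higher and 471 lower, against 1 and 11 with all probe sets, 531 and 774 with quantile normalization and 257 and 316 without a filter. With an array left out, 1 group holds 1 array and the spread comes from the remaining pair alone. The counts over all genes and their balance of higher and lower genes moved widely there, and why they moved was not tested. No paired analysis was possible because the replicate numbers follow accession order and the labels tie no olaparib sample to a DMSO sample. Background correction could not be varied from the deposited values, and genes near the floor, such as Celf4, Celf6 and Elavl4, leave little room to show a fall.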
